A study of Mus musculus with 2 samples.

Results

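Basophils and mast cells were rare in the healing mouse skull: 72 of 17129 cells within the quality limits carried the RNA of the beta subunit of the IgE receptor together with a granule protease of these lineages. The cells were chosen by their own transcript counts. A cell had to hold at least 2 UMIs (unique molecular identifiers, each standing for 1 captured RNA molecule) of Ms4a2 and at least 5 UMIs of Cpa3 and Mcpt8 together, with S100a8 and S100a9 below 3% of its UMIs. Within these cells, at least 3 UMIs of Mcpt8 marked a basophil and at least 5 UMIs of the proteases Mcpt4, Cma1 and Tpsb2 together marked a mast cell. By this reading 57 cells were basophils, 8 were mast cells, 7 were neither and 0 were both. Levels of the genes used for the choice are therefore given as a description.

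The cells came from bone around a circular frontal bone defect of 1.8 mm in male C57BL/6 mice (C57BL/6J in the study's methods) of 2 months, harvested 7 days after injury. For the GA library, mice were injected intraperitoneally with gambogic amide, a small molecule. The labels give a dose of 1.2 mg/kg in 10% DMSO, and the text of the study gives 2 mg/kg. For the control library they received 100 µL of 10% DMSO alone, and in both groups injections began 24 h before the injury and went on daily for 1 week. Each library pooled 5 mice, so there was 1 library per condition. No test between conditions was possible, the intervals below cover counting error only, and a difference between the libraries cannot be told apart from a difference between pools of mice or between runs.

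Basophils and mast cells are the blood-borne and the tissue-resident effector cells of IgE. Both carry the high-affinity IgE receptor, made of an alpha chain (Fcer1a), a beta chain (Ms4a2) and a shared gamma chain (Fcer1g), and both store histamine and serine proteases on a serglycin matrix in their granules. Basophils are short-lived cells released from bone marrow and are a known source of interleukin 4, whereas mast cells need the receptor Kit and mature in connective tissue, including periosteum and marrow. The transcription factor Gata2 is required for both lineages.

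Promoters of 5 marker genes of the cells are shown here, from 250 bases before to 50 bases after the start site. The rule that chose and named the cells read Ms4a2, Cpa3, Mcpt8 and Cma1 among them, and not Prss34. The sequences are those of RefSeq on GRCm38.p6, written 5′ to 3′ on the strand of the gene, and capitals mark the 6-letter words of the GATA motif, made of A or T, then GATA, then A or G, on either strand. The windows lie at chr19:11623670-11623969 (minus strand) for Ms4a2, chr3:20242132-20242431 (minus strand) for Cpa3, chr14:56085148-56085447 (minus strand) for Mcpt8, chr17:25298144-25298443 (plus strand) for Prss34 and chr14:55944626-55944925 (minus strand) for Cma1.
Ms4a2: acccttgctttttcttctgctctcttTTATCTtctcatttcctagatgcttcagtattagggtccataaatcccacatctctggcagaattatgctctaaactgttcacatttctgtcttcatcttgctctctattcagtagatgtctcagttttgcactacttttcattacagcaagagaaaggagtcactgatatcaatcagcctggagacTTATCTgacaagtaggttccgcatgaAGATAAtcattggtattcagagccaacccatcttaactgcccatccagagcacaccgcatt
Cpa3: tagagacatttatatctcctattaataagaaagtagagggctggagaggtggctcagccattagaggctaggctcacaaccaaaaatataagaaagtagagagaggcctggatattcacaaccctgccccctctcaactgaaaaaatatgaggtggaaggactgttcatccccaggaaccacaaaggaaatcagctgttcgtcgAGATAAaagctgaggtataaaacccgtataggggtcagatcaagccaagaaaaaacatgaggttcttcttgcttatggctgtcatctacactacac
Mcpt8: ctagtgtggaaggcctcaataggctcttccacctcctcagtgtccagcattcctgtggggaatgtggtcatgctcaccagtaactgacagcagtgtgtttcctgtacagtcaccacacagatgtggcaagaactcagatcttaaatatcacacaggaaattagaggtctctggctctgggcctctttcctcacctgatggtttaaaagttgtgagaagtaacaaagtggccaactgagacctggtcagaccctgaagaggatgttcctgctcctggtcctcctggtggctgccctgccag
Prss34: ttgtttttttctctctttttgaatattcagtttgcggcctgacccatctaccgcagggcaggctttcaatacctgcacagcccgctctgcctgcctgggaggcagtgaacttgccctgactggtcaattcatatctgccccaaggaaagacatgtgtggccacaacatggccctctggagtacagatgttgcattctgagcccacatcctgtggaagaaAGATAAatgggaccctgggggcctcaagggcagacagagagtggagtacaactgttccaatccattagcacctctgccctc
Cma1: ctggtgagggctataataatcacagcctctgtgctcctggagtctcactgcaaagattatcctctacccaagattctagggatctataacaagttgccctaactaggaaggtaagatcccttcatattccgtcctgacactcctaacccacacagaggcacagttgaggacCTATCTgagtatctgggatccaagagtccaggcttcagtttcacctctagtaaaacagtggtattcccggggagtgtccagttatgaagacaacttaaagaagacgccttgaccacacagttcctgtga

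The Ms4a2 window held 3 matches, starting 224, 37 and 11 bases before the start site, whereas 1.76% of the 32851 promoters in the same table held 3 or more. The windows of Cpa3, Prss34 and Cma1 held 1 match each, 46, 31 and 79 bases before the start site, a number that 29.8% of all promoters reached or passed. The Mcpt8 window held none of these letters. A match describes the letters only, and 13 of 15 genes looked up were in the table.

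Several protease genes of the cells lie in 2 clusters of the mouse genome, and Cpa3 lies apart from them on chromosome 3. Cma1, Mcpt4, Mcpt8, Ctsg and Gzmb follow each other on chromosome 14, from 55941451 at the 3′ end of Cma1 to 56262260 at the 5′ end of Gzmb (GRCm38). Prss34, Tpsab1 and Tpsb2 lie together on chromosome 17, from 25298394 to 25369098. Mcpt8, Cma1, Mcpt4 and Tpsb2 were read by the rule, so their place in basophils or mast cells was set by it. Of the others, Ctsg, Gzmb and Prss34 were higher in basophils than in mast cells. Tpsab1 was seen in mast cells and in no basophil, as the levels below show.

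The share of basophils and mast cells was close to equal in the libraries, but mast cells were seen in control only. The GA library held 37 such cells of 9036 (0.409%, exact binomial 95% interval 0.288 to 0.564%) and the control library 35 of 8093 (0.432%, 0.301 to 0.601%), a ratio of 0.947 (95% interval 0.597 to 1.5). Basophils made up 31 cells in GA (0.343%, 0.233 to 0.487%) and 26 in control (0.321%, 0.210 to 0.470%), a ratio of 1.07 (0.635 to 1.8). Mast cells numbered 0 of 9036 in GA, which allows a share of up to 0.0332% (exact upper limit 0.0408%), and 8 of 8093 in control (0.0989%, 0.0427 to 0.195%). The cells that were neither numbered 6 in GA and 1 in control, a ratio of 5.37 (0.647 to 44.6). When a basophil had to hold 10 UMIs of Mcpt8, they numbered 7 in GA and 8 in control. Intervals of GA and control overlapped for all cells together, for basophils and for the cells that were neither, and did not overlap for mast cells (upper limit 0.0408% in GA, lower limit 0.0427% in control).

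The absence of mast cells from GA rested on the Ms4a2 threshold for 1 cell. That GA cell held 31 UMIs of Cma1, 22 of Tpsb2, 34 of Cpa3 and 14 of Kit, but 1 of Ms4a2 and 0 of Mcpt4, and was left out. With a threshold of 1 UMI of Ms4a2, the counts of mast cells were 1 in GA and 8 in control, and the intervals overlapped (up to 0.0616% in GA). They also overlapped with a threshold of 4 UMIs, which left 4 control mast cells. Over all 9322 barcodes of GA, Mcpt4 had 4 UMIs, Cma1 75 and Tpsb2 24, whereas the 8718 barcodes of control held 2210, 2293 and 2010 UMIs of these genes. How many of the 5 mice of each pool gave mast cells is not known, and the site of dissection was not compared.

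Many of the cells lay close to a threshold. At the Ms4a2 limit, 4 GA and 6 control cells had exactly 2 UMIs, and 6 GA and 2 control cells with 1 UMI met every other criterion. A further 29 GA and 10 control cells met the protease criterion with no Ms4a2 UMI. At the protease limit, 2 GA and 5 control members had 5 to 9 UMIs of Cpa3 and Mcpt8 together, and 4 GA and 0 control cells with 1 to 4 met the other criteria. Among basophils, 1 GA and 7 control cells had 3 to 9 UMIs of Mcpt8, and 6 GA and 2 control cells with 10 or more UMIs of Mcpt8 stayed outside the rule. The S100a8 and S100a9 limit removed 0 cells.

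Depth was sufficient to read the abundant transcripts in single cells and not the rare ones. The basophils held a median of 12545 UMIs in GA (759 to 91625, 539116 in sum) and 11177 in control (978 to 40130, 344582 in sum), and 1 GA cell gave 17.0% of the GA sum. The 8 mast cells held a median of 8164 UMIs (3785 to 15637, 70261 in sum). The GA cells that were neither were deeper, with a median of 42166 UMIs. Levels below are counts per 1000000 UMIs (CPM), taken within a cell or, for a group, over its summed cells. The median share of mitochondrial transcripts was 2.81% in GA basophils, 2.82% in control basophils and 4.31% in mast cells. The libraries shared 23 cell barcodes, 0 of them among the 72 cells.

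**Figure D1:**
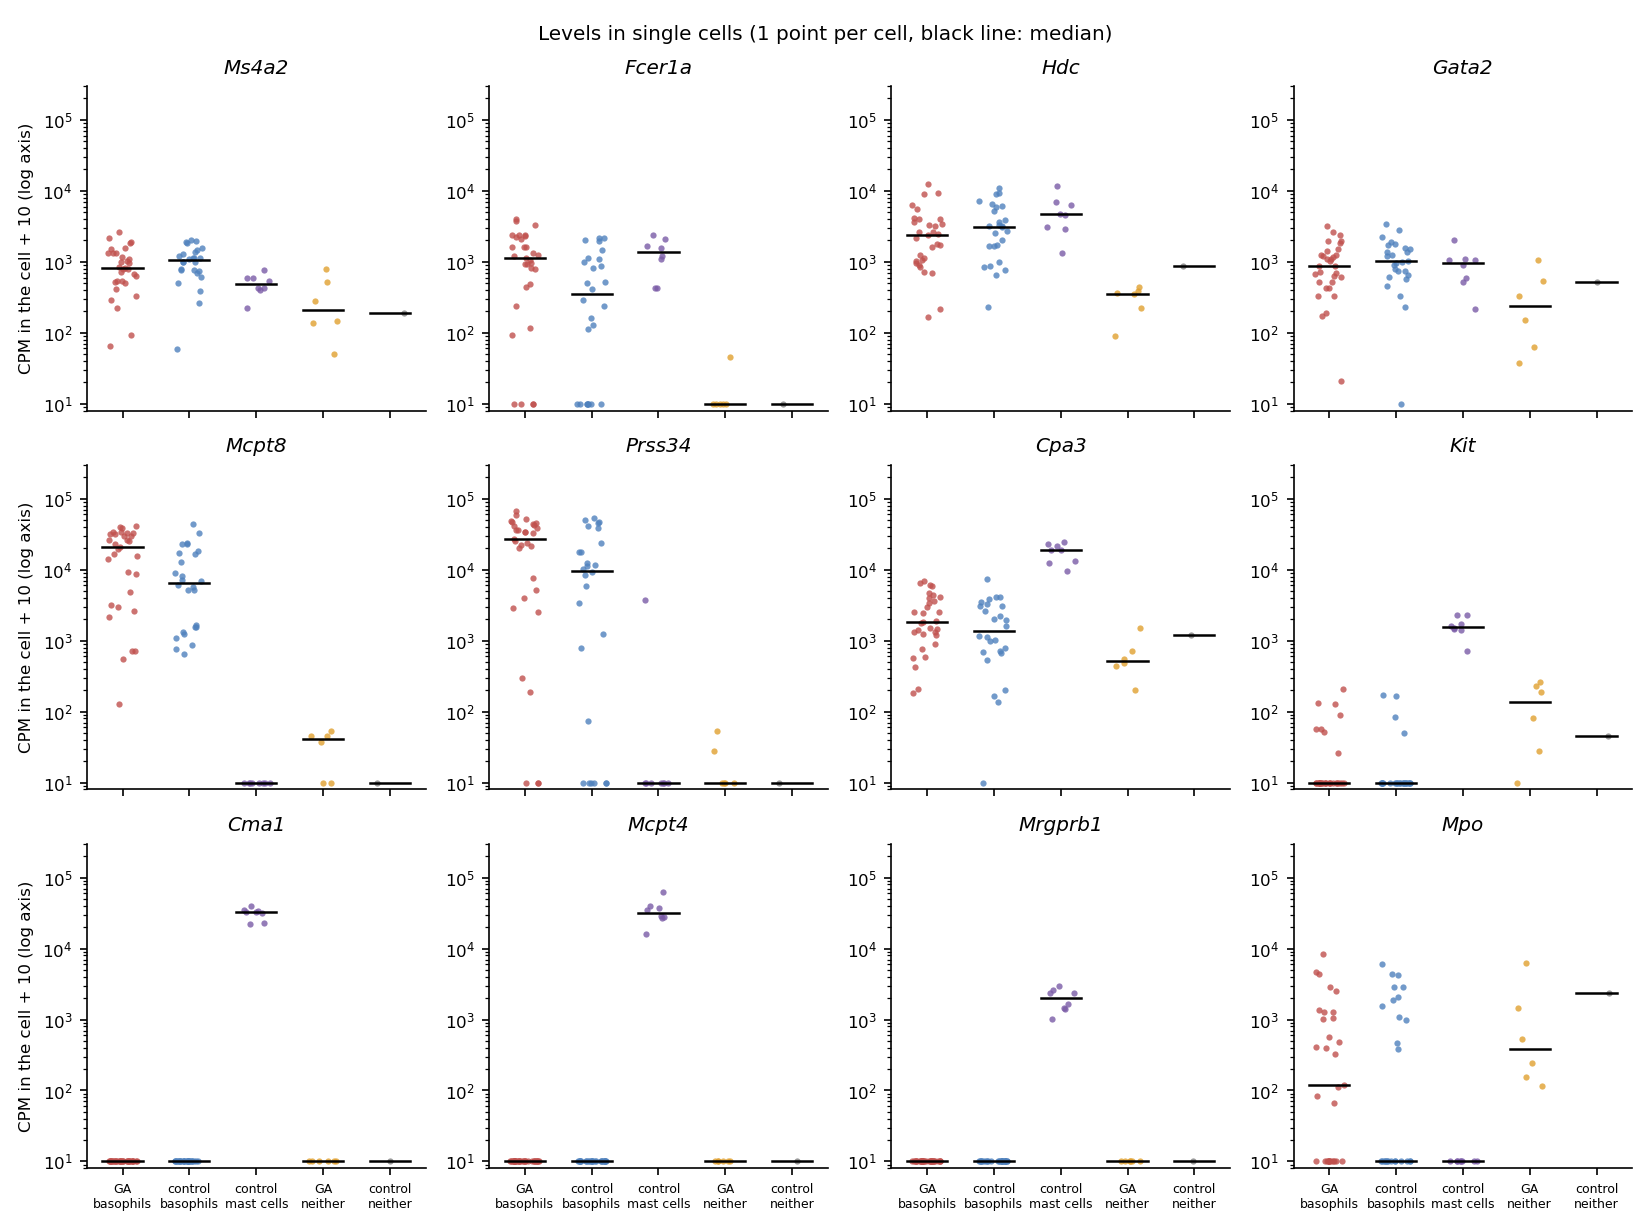
Levels of 12 genes in each of the 72 cells, as CPM in the cell plus 10 on a log axis, by library and kind of cell, with 1 point per cell and a black line at the median. Cma1, Mcpt4 and Mrgprb1 were seen in the 8 control mast cells alone, and the Mcpt8 points of basophils stretch over 2 orders of magnitude.

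RNA of the IgE receptor was found in basophils and mast cells alike, with that of its alpha chain nearly absent from the cells that were neither. Ms4a2, the beta chain used for the choice, stood at 694 CPM in GA basophils, 934 in control basophils and 484 in mast cells. Fcer1a, the alpha chain that binds IgE, had a median of 1116 CPM over the GA basophils (0 to 4061), 340 over the control basophils (0 to 2174) and 1362 over the mast cells (412 to 2371). The ranges overlapped widely, and summed over cells Fcer1a was 1046 CPM in GA and 551 in control basophils, a log2 ratio of 0.92 (95% interval 0.68 to 1.17). In the 7 cells that were neither, 1 Fcer1a UMI was found in all. Fcer1g, the signalling gamma chain, had 1157 CPM in GA and 1187 in control basophils (log2 ratio -0.04, -0.22 to 0.15).

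Surface receptors were in part common to both kinds and in part not. Cd200r3, an activating receptor of basophils and mast cells, stood at 820 CPM in GA basophils, 717 in control basophils and 982 in mast cells. Il1rl1, the receptor for the alarmin interleukin 33, had 104 CPM in the basophils of either library and 1978 in mast cells, where its lowest cell had 833 CPM. Kit, the receptor for stem cell factor, ranged from 705 to 2292 CPM in the 8 mast cells with a median of 1550, and was found in 8 of 31 GA basophils, up to 197 CPM, and 4 of 26 control basophils, up to 160 CPM. Mrgprb1, of a family of receptors of mast cells, ranged from 1019 to 2947 CPM in the 8 mast cells and had 0 UMIs in the 57 basophils. Il18rap, a subunit of the interleukin 18 receptor, was instead at 315 and 276 CPM in GA and control basophils, with 1 UMI in all mast cells.

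Granule proteases divided basophils from mast cells, which the rule itself read in part. Mcpt8, a protease known from basophils, had a median of 20867 CPM in GA basophils (120 to 40933) and 6552 CPM in control basophils (637 to 43803), and 0 UMIs in mast cells. Prss34, the other basophil protease and not part of the rule, followed it with a median of 26905 CPM in GA (0 to 68000) and 9693 CPM in control (0 to 52923). Of 8 mast cells, 1 held 14 UMIs of Prss34 and the others 0. Together Mcpt8 and Prss34 reached 10.1% of the UMIs of a GA basophil and 9.67% of those of a control basophil.

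The chymases and tryptases of mast cells were high in each of the 8 mast cells and in no basophil. Cma1, a chymase, ranged from 22416 to 40423 CPM over the 8 mast cells with a median of 32928. Mcpt4, also a chymase, ranged from 16174 to 62461 CPM with a median of 31727. Tpsb2, a tryptase, ranged from 13786 to 35174 CPM with a median of 27312, and Tpsab1 stood at 1039 CPM. The tryptases are close copies of each other, so the split of UMIs between them is uncertain. None of these 4 genes had a UMI in the 57 basophils, where a count of 0 allows 8.71 CPM over the 26 control basophils.

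Cpa3, the carboxypeptidase that both lineages store, was shared but unequal. It had a median of 1796 CPM in GA basophils (172 to 6823), 1371 CPM in control basophils (0 to 7464) and 18854 CPM in mast cells (9465 to 24835). The lowest mast cell lay above the highest basophil of either library. Mast cells over control basophils gave a log2 ratio of 2.93 (2.80 to 3.06).

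RNA of genes for making and storing histamine was found in both kinds. Hdc, the enzyme that makes histamine, stood at 2534 CPM in GA basophils, 2954 in control basophils and 4483 in mast cells. Hdc was also found in 62.4% of the GA cells and 33.3% of the control cells outside the class, at a level of 379 and 124 CPM. Srgn, the serglycin core protein, had 3420, 4382 and 3088 CPM in the same order. Slc18a2, the transporter that loads histamine into granules, had 410, 348 and 541 CPM.

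Gata2 was present in 31 of 31 GA basophils, 25 of 26 control basophils and 8 of 8 mast cells. Its level was 686 CPM in GA basophils, 1048 in control basophils and 868 in mast cells. Mitf, a regulator of the mast cell lineage, had 455 CPM in mast cells and 11.1 and 5.80 CPM in GA and control basophils. Cebpa, a factor of basophils and other granulocytes, had 200 and 235 CPM in GA and control basophils and 0 UMIs in mast cells. Gata1 was sparse in each kind, with 24.1 CPM in GA basophils, 17.4 in control basophils and 1 UMI in mast cells.

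Basophils of either library ran from cells poor to cells rich in granule proteases. Prss34 had a Spearman correlation with Mcpt8 over cells of 0.93 in GA (n = 31) and 0.91 in control (n = 26), and was the gene most like it among 1993 genes detected in at least 50% of the basophils of each library. The next were Mns1, with 0.69 and 0.77, and Cpa3, with 0.66 and 0.65, and Ctsg, the granule protease cathepsin G, had 0.47 and 0.62. The chromatin genes Hmgb2 (0.53 and 0.54) and Hmgn2 (0.55 and 0.62) were also among the 15 most like it. Opposite in sign were ribosomal protein genes such as Rps14 (-0.52 and -0.52) and Rps9 (-0.51 and -0.57). The cells of a library share its chemistry and pool of mice, and all CPM of a cell share 1 denominator, of which Mcpt8 and Prss34 took a median of 5.09% in GA and 1.77% in control.

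The summed level of 15 cell cycle genes had a correlation with Mcpt8 of 0.44 in GA and 0.67 in control. It reached 7773 CPM in GA and 6964 CPM in control basophils, with medians of 1165 and 562 CPM. More than 1000 CPM was found in 16 of 31 GA basophils (51.6%, 33.1 to 69.8%) and 12 of 26 control basophils (46.2%, 26.6 to 66.6%). Cells with more UMIs had more of it, with a correlation of 0.45 in GA and 0.60 in control, while that of Mcpt8 with UMIs was 0.00 and 0.44, and the part of depth in these relations was not tested. Mki67, a protein of dividing cells, had 202 CPM in GA and 241 CPM in control basophils and 0 UMIs in mast cells.

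The division of basophils by Mcpt8 is a description, since Mcpt8 was read by the rule that chose them. Above 10000 CPM of Mcpt8, a division set after the values were seen, lay 20 of 31 GA basophils (64.5%, 45.4 to 80.8%) and 9 of 26 control basophils (34.6%, 17.2 to 55.7%), and the intervals overlapped. Within a factor of 1.5 of the division lay 3 GA and 5 control cells. The median Mcpt8 level above it was 29939 CPM in GA and 23176 CPM in control. The median level of Ctsg above and below it was 2307 against 354 CPM in GA and 2619 against 134 CPM in control, although summed over cells Ctsg had 3408 against 3367 CPM in GA and 3101 against 2270 CPM in control. Median cell cycle levels were 1226 against 211 CPM in GA and 3892 against 243 CPM in control. Summed over cells the difference was smaller, at 2723 against 2637 CPM in GA and 3656 against 1916 CPM in control. The GA basophils with the most cell cycle UMIs, 295 and 257, held 11 and 33 UMIs of Mcpt8 and 0 of Prss34 and Fcer1a. Ifitm1, an interferon-induced membrane protein, ran the other way, with medians of 962 against 2788 CPM in GA and 1105 against 5019 CPM in control. Summed over cells, the difference in Ifitm1 was in the same direction but smaller in both libraries. The median Ccl6 level was 0 above the division in both libraries and 16.5 CPM in GA and 1374 CPM in control below it.

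**Figure D2:**
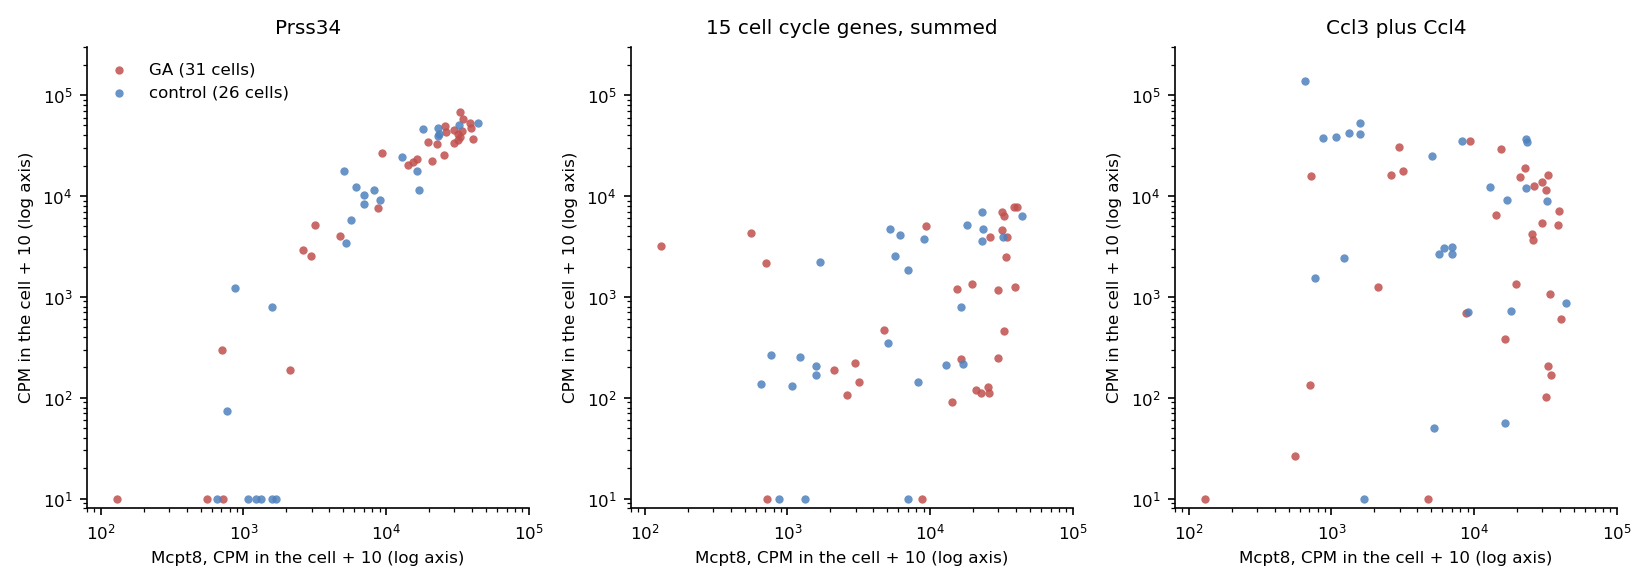
Each basophil as a point, with its Mcpt8 level on the horizontal axis and on the vertical axis the level of Prss34 (left), 15 cell cycle genes summed (middle) or Ccl3 plus Ccl4 (right), all as CPM in the cell plus 10 on log axes. Prss34 tracks Mcpt8 in both libraries, whereas the chemokines are spread over the whole range of Mcpt8.

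Some basophils carried transcripts of neighbouring granulocyte lineages. Of the GA basophils, 1 held 1068 UMIs of Prg2 and 106 of Epx, granule proteins of eosinophils, beside 17 of Mcpt8, and 1 control basophil held 1450 of Prg2 and 16 of Epx. Prg2 and Epx in the sums of the basophils came almost wholly from these cells. A GA basophil of 91625 UMIs held 779 of Mpo and 443 of Elane, granule proteins of early neutrophils, and a control basophil of 40130 UMIs held 244 of Mpo, 567 of Elane and 300 of S100a8. The control cell with Prg2 also held 359 UMIs of Mcpt8, 907 of Prss34, 22 of Fcer1a and 14 of Cd200r3, which go with the name basophil. Other markers of the cells of 91625 and 40130 UMIs, and of the GA cells that follow, went against the name that the rule gave them. The GA cell of 91625 UMIs had 11 UMIs of Mcpt8 and 0 of Prss34, Fcer1a and Cd200r3. The control cell of 40130 UMIs had 67 of Mcpt8 and 0 of Cpa3, Prss34, Fcer1a, Cd200r3 and Gata2. Another GA cell, of 60630 UMIs, had 33 of Mcpt8, 0 of Prss34 and Fcer1a and 2 of Cd200r3, beside 150 of Mpo and 268 of Ctsg, and the GA cell with Epx had 7 of Prss34, 2 of Fcer1a and 0 of Cd200r3. Mpo was not limited to them, with UMIs in 19 of 31 GA and 12 of 26 control basophils and in 0 mast cells. The GA cell with Epx was among the highest doublet scores of its library, and the other 4 of these cells were not. The cells named are examples. A control basophil of 15835 UMIs had 12 of Mcpt8, 1 of Prss34, 0 of Fcer1a, 1 of Cd200r3 and 30 of Mpo. A GA basophil of 24139 UMIs had 115 of Mcpt8 and 97 of Prss34, but 0 of Fcer1a and Cd200r3, beside 113 of Mpo.

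**Figure D3:**
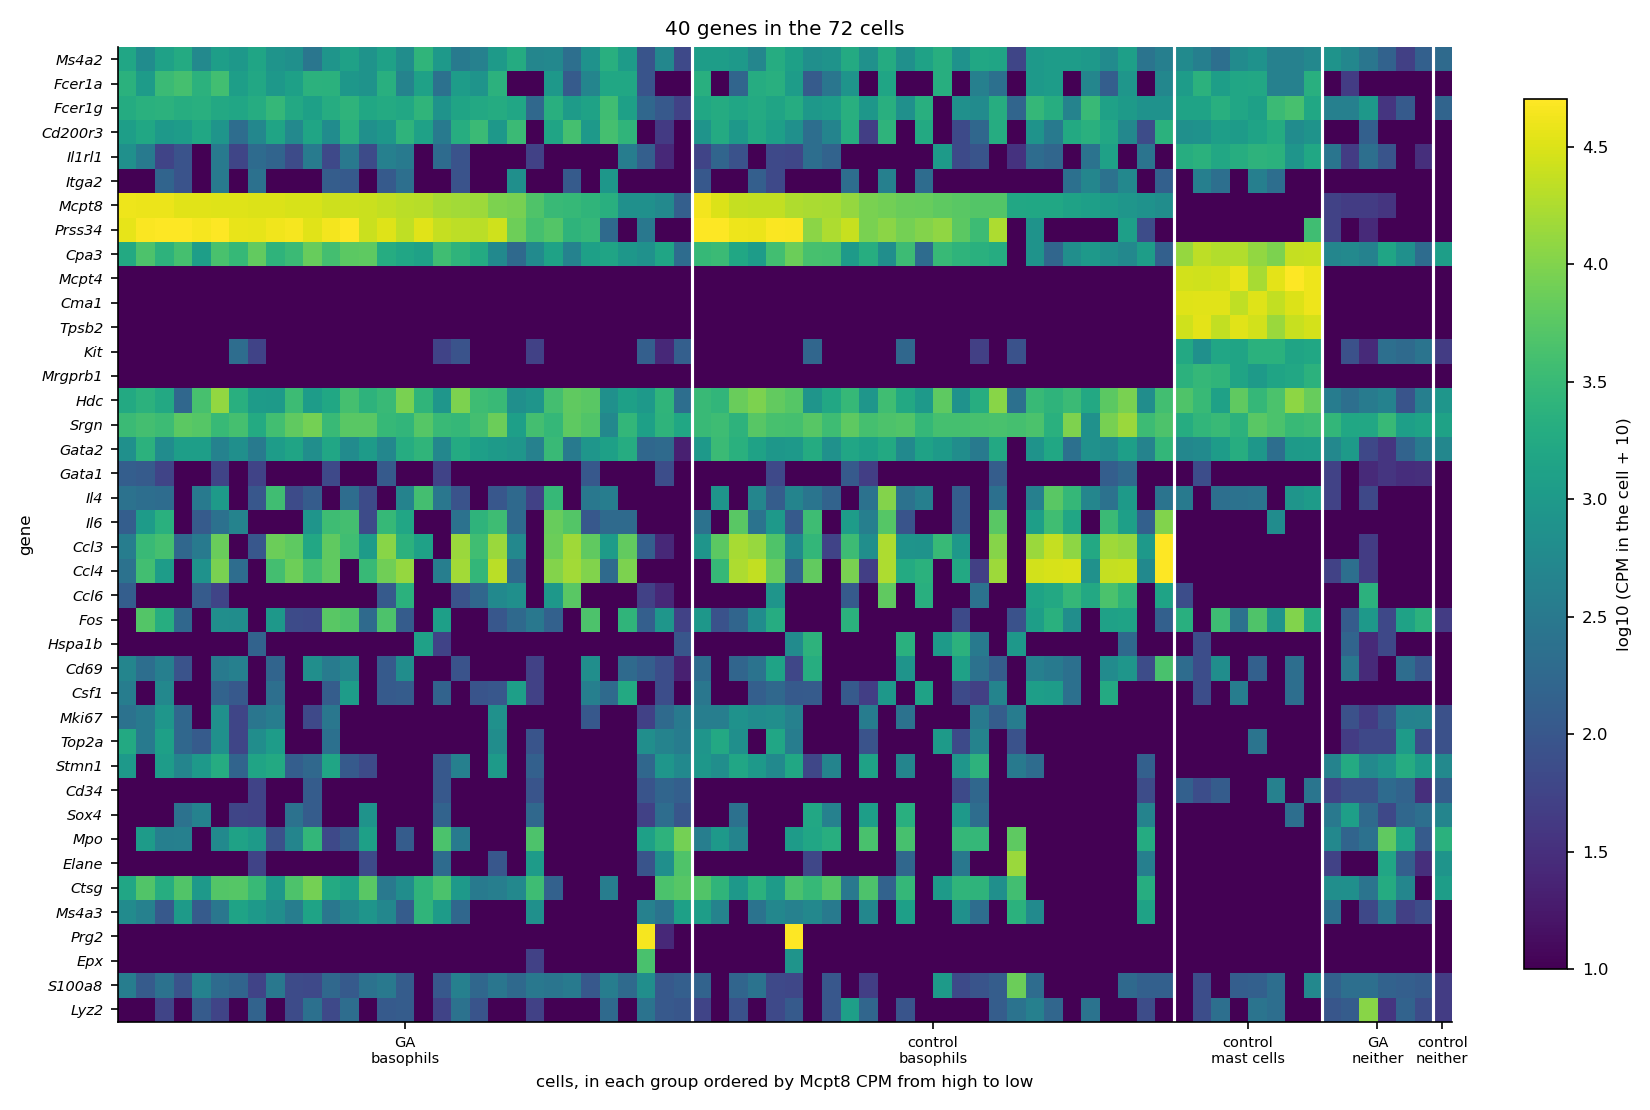
Levels of 40 genes (rows) in the 72 cells (columns), as log10 of CPM in the cell plus 10, with cells grouped by library and kind and ordered by Mcpt8 from high to low. The 8 mast cells form a block with high Mcpt4, Cma1, Tpsb2 and Kit, and Prg2 and Epx stand out in 1 basophil of each library.

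Mast cells and basophils of the control library differed in much of what they expressed. Of 1329 genes with 50 UMIs or more, 235 (17.7%) were more than 2-fold higher and 533 (40.1%) more than 2-fold lower in mast cells than in basophils. The median over these genes was a log2 ratio of -0.58, and relative to that median 373 were more than 2-fold higher and 345 lower. The groups were split by the proteases, both came from 1 library, and the mast cells rest on 8 cells, so these counts describe the cells at hand.

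Among the genes highest in mast cells that the rule did not read were several with no UMI in the control basophils. Lsamp, a cell adhesion protein, had 2434 CPM and was at least 280-fold higher, taking 3 UMIs over the 26 basophils as the floor. Mrgprb1 was at least 247-fold higher and Hs6st2, an enzyme that sulphates heparan chains, at least 175-fold higher. Ext1, which polymerises heparan sulphate, had 6020 against 66.8 CPM (log2 ratio 6.50, 5.89 to 7.17), although 201 of its 423 UMIs were in 1 cell. The monocyte chemokine Ccl2 had 1509 against 5.80 CPM and was found in 8 of 8 mast cells, and Ccl7 had 3103 CPM with 114 of 218 UMIs in 1 cell. Ctla2a, Basp1 and Mctp1 had log2 ratios of 7.08, 4.99 and 4.74, and Sgcd and Pakap (ENSMUSG00000038729, of 2 genes with this symbol) had 0 UMIs in basophils, Pakap with 1694 CPM in mast cells.

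Several of the genes lowest in mast cells had no UMI in them. The genes named below passed the UMI limit for naming through the control basophils, which held 344582 UMIs in sum against 70261 in mast cells. That limit favoured genes low in mast cells, so the choice of genes is not read apart from it. Ccl4 and Ccl3, chemokines for lymphocytes and monocytes, had 7676 and 5113 CPM in control basophils and 0 UMIs in mast cells, which makes them at least 180-fold and 120-fold lower. Plac8, Ctsg and Mpo had 3424, 2618 and 1973 CPM in control basophils and also 0 UMIs in mast cells. Hgf, hepatocyte growth factor, had 807 CPM in control basophils and 1 UMI in mast cells (log2 ratio -5.82, -11.13 to -3.33). Ifitm1, Cd9, Tec and Gzmb likewise had 1 UMI each in mast cells, and Il1b had 2, against 527 in basophils, 211 of them in 1 cell. Prg2 and Elane were among the 15 lowest only through the single basophils described above, which held 1450 of 1450 and 567 of 581 UMIs.

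Among genes of IgE receptor signalling, the kinases Fyn and Lyn had log2 ratios of mast cells over basophils of 2.29 (1.74 to 2.84) and 1.8 (1.15 to 2.44), against -0.58 at the median of all genes. Fcer1a had 1.41 (1.05 to 1.76), the adaptor Lat2 1.36 (0.80 to 1.91), Fcer1g 0.63 (0.33 to 0.92) and the adaptor Gab2 0.14 (-0.51 to 0.74). Ms4a2, a gene of the rule, had -0.95. Inpp5d, the phosphatase SHIP1, had 811 and 92.9 CPM, and its 32 basophil UMIs alone would not have passed the limit of 50 UMIs. Over all genes listed 63% were lower in mast cells, and the basophils, with more summed UMIs, brought more genes past the limit of 50 UMIs. The 7 cytokines and growth factors listed passed it through the basophils, so their count is not read, and Il13 and Vegfa, under the limit, had log2 ratios of 3.07 (1.61 to 4.66) and 2.14 (0.67 to 3.60). The immediate early list had a sum of 27967 against 11843 CPM. Of its 14 genes, 11 were higher and 3 lower in mast cells, from Egr1 at 2918 against 192 CPM to Ier3 at a log2 ratio of -2.01. The cell cycle list had a sum of 270 CPM in mast cells and 2644 CPM in control basophils, with 11 of its 15 genes at 0 in mast cells. Interleukin 4 was found in both, at 270 CPM in mast cells and 549 in control basophils, whereas Il13 had 171 and 20.3 CPM.

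The 7 cells that were neither carried transcripts of progenitors and of the cell cycle, as basophils did, and their number allows values only. Cpa3 had 620 CPM in the 6 GA cells and 1183 CPM in the control cell. Cd34, a surface protein of progenitors, was found in 7 of 7 cells, with 91.5 CPM in GA against 53.8 CPM in GA basophils. These cells were deeper, and after thinning to 2000 UMIs a cell Cd34 was found in 0 of the 7. Kit had 133 CPM in the GA cells, above the 42.7 CPM of GA basophils and below the 1509 CPM of control mast cells. Mpo had 1398 CPM in the GA cells, 230 of 336 UMIs in 1 cell, and 2329 CPM in the control cell. GA basophils had 2486 CPM of Mpo, with 779 of 1340 UMIs in the basophil of 91625 UMIs. The order of these levels is therefore not read. The early progenitor list summed to 3886 CPM in the GA cells and 5531 CPM in GA basophils. The same basophil held 779 UMIs of Mpo and 731 of Prtn3 among the 2982 UMIs of the list in GA basophils. The direction of this difference is not read either. Sox4, a factor of immature cells, was at 295 CPM in the GA cells that were neither and 466 CPM in the control cell. The cell cycle list summed to 2688 CPM in the GA cells and 2682 CPM in GA basophils, with single cells from 701 to 5473 CPM. In GA, 1 of these cells held 608 UMIs of Lyz2, 133 of Ccl6 and 105 of Cxcl2, genes of macrophages and neutrophils. That cell, another of the 6 GA cells and the control cell were among the highest doublet scores, which leaves 4 GA cells and 0 control cells.

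Between GA and control, few genes of the basophils were beyond 2-fold. Of 2864 genes with 50 UMIs or more, 61 (2.13%) were more than 2-fold higher and 40 (1.40%) more than 2-fold lower in GA. At any size, 55.3% were higher and 44.7% lower. Among the 622 genes with 200 UMIs or more the balance turned, with 4 beyond 2-fold higher and 7 lower. The median log2 ratio was 0.05, and the 10th and 90th percentiles were -0.46 and 0.60, while the 95% counting interval of a gene reached a median of 0.63 to either side. With 1 library per condition there was no replicate check, and a ratio outside its counting interval shows a difference between 2 pools of cells only.

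**Figure D4:**
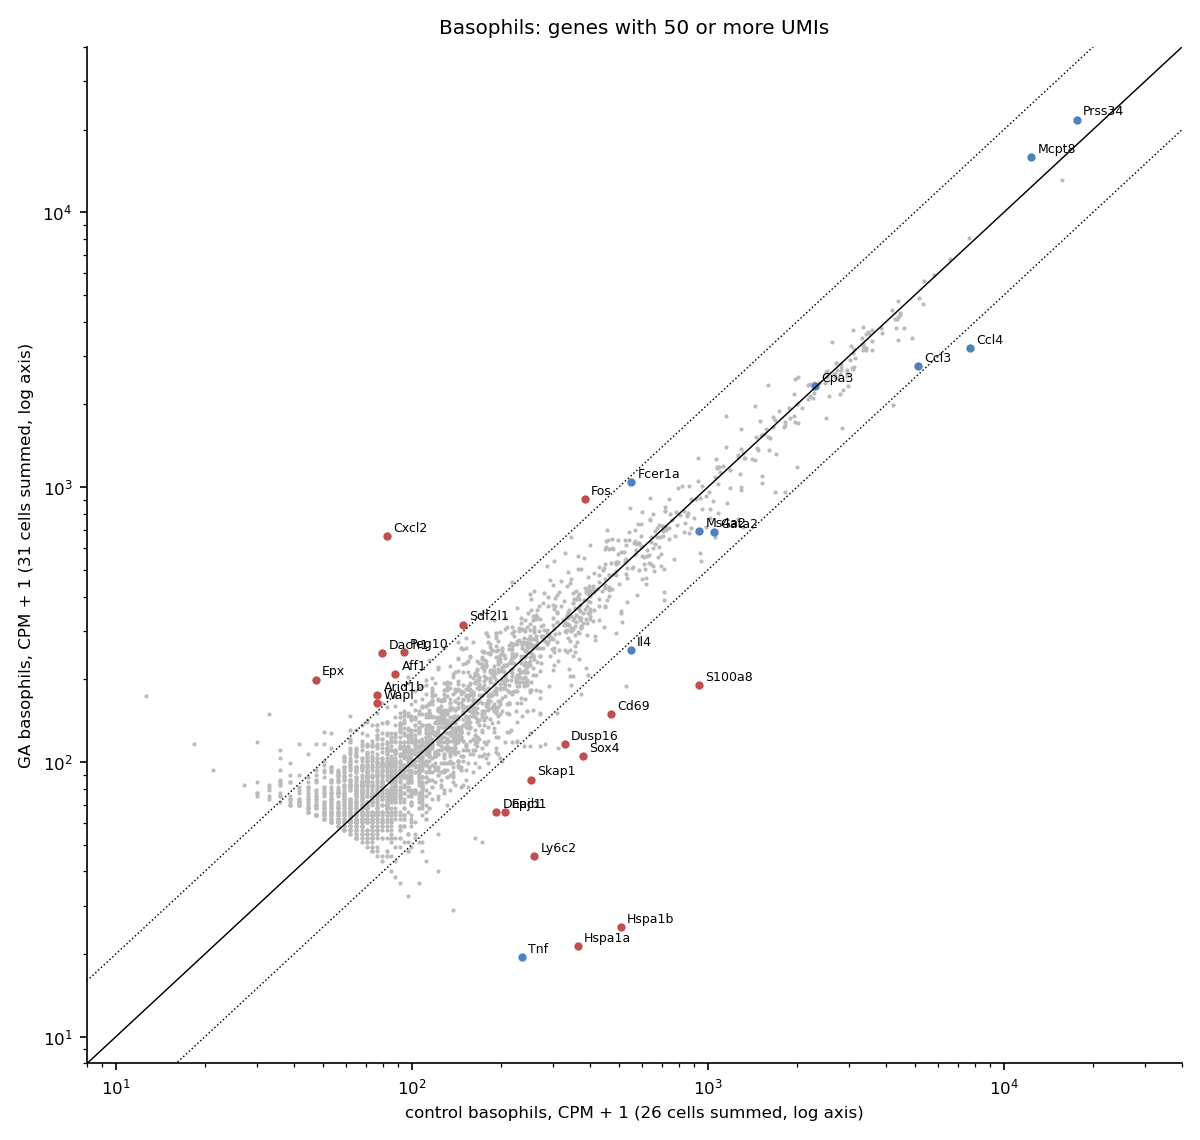
Basophil levels in control (horizontal) and GA (vertical), as CPM plus 1 of the summed cells on log axes, with 1 point for each of 2864 genes, a solid line at equal levels and dotted lines at 2-fold. Red points are 9 of the 10 highest and the 10 lowest ratios among genes with 100 UMIs or more, and blue points are other genes of the text.

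Chemokines and cytokines were the lists with the lowest medians among those of the basophil programme. Ccl4 had a median of 2775 CPM over GA basophils (0 to 20987) and 4696 CPM over control basophils (0 to 89588), and summed it had 3207 and 7676 CPM (log2 ratio -1.26, -1.35 to -1.17). Ccl3 had summed levels of 2762 and 5113 CPM (-0.89, -0.99 to -0.79). The ranges of the cells overlapped, and 1 control cell gave 26.6% of the Ccl4 UMIs of control. Without the cell richest in the gene in each library, the ratios were -1.02 for Ccl4 and -0.71 for Ccl3. The 7 control basophils with 3 to 9 UMIs of Mcpt8 held 1328 of the 2645 Ccl4 UMIs and 715 of the 1762 Ccl3 UMIs of control. With 10 UMIs of Mcpt8 asked for, the ratios were -0.44 for Ccl4, no longer beyond 2-fold, -0.32 for Ccl3 and -0.64 for Ccl6, and the median of the chemokines was -0.32. Of the 5 chemokines listed, 3 were lower in GA, 2 by more than 2-fold, with a median of -0.89 against 0.05 over all genes, of which 44.7% were lower and 1.40% beyond 2-fold lower. The exceptions were Ccl9 at 0.23 and Cxcl2 at 3.03 (2.47 to 3.64), and 264 of the 357 Cxcl2 UMIs in GA were in 1 cell. Ccl6, another chemokine of myeloid cells, was lower at -1.5 (-1.86 to -1.14).

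Of the 7 cytokines and growth factors listed, 6 were lower in GA, 2 by more than 2-fold, with a median of -0.56, beside 44.7% lower and 1.40% beyond 2-fold lower over all genes. Il4 had 254 CPM in GA and 549 CPM in control, from 137 and 189 UMIs (-1.11, -1.44 to -0.79), and 40.7% of the control UMIs were in 1 cell. Without the richest cell of each library the ratio was -1.02. Il6, a cytokine of inflammation, had 762 and 1260 CPM (-0.72, -0.92 to -0.53), and Osm, oncostatin M, had 495 and 656 CPM (-0.41, -0.67 to -0.14). With 10 UMIs of Mcpt8 asked for, Osm turned to 0.40, Il6 stood at -0.39 and the median of the list at -0.15. Tnf had the lowest ratio, -3.66 (-4.78 to -2.71), with 10 UMIs spread over 4 cells in GA against 81 over 9 cells in control. Its GA UMIs alone would not have passed the limit for listing, so Tnf was listed through control. The counts and the median of the list include Tnf, and the count of 2 genes beyond 2-fold lower is therefore not read. Csf1, the growth factor of macrophages and osteoclast precursors, had 128 and 189 CPM (-0.56, -1.07 to -0.05). Hgf and Tgfb1 had ratios of -0.03 (-0.25 to 0.19) and 0.07 (-0.31 to 0.45).

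Granule proteases that the rule did not read were higher in GA, 3 of 3 listed against 55.3% of all genes, and 0 by more than 2-fold. Prss34 and Ctsg followed Mcpt8, a gene of the rule, over cells (0.93 and 0.47 in GA, 0.91 and 0.62 in control). The count of 3 is therefore not read as free of the rule. Prss34 had a ratio of 0.30 (0.26 to 0.35), Ctsg 0.37 (0.26 to 0.49) and Gzmb 0.52 (0.28 to 0.75). Mcpt8 at 0.36 (0.31 to 0.41) and Cpa3 at 0.02 (-0.11 to 0.15) were used to choose the cells and are a description. When each cell was given equal weight, the ratio of Mcpt8 was 0.88 and that of Prss34 0.75, the highest of the alternatives run. The lowest were 0.23 for Mcpt8 and 0.16 for Prss34. Of the Gzmb UMIs of GA, 44.7% were in 1 cell. Of the 1827 Ctsg UMIs of GA, 499 were in the cell of 91625 UMIs, whose other markers went against the name basophil.

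Of 10 cytokine and alarmin receptors listed, 9 were lower in GA, 1 by more than 2-fold, with a median of -0.31. Over all genes 44.7% were lower and 1.40% beyond 2-fold lower. Il7r had the lowest ratio at -1.06 (-1.84 to -0.30), while Il3ra, the receptor for the basophil growth factor interleukin 3, had -0.38 (-0.98 to 0.23). Of 9 migration and adhesion genes, 8 were lower, beside the same 44.7% over all genes. Their median was -0.41, with Itgb7, an integrin chain, lowest at -1.0 (-1.54 to -0.46). Of 13 listed genes of IgE receptor signalling, 5 were higher and 8 lower, with a median of -0.12, beside 44.7% lower over all genes. Lcp2, the adaptor SLP-76, was the member beyond 2-fold at 1.29 (0.35 to 2.35), from 46 and 12 UMIs. Ms4a2 had -0.43 (-0.65 to -0.21) and, as a gene of the rule, is a description.

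The remaining lists of the basophil programme lay nearer to zero or held few genes. The lineage factors had a median of -0.17 over 10 genes, with Gata2 at -0.61 (-0.82 to -0.40). Eicosanoid synthesis had 0.05 over 8 genes, with Ptgs2, cyclooxygenase 2, beyond 2-fold at 1.02 (0.53 to 1.55). The cell cycle list had 0.06 over 15 genes, and its sum was 2682 CPM in GA and 2644 CPM in control. STAT5 targets and survival genes had 3 of 12 members listed, all higher, where 55.3% of all genes were, and Bcl2, which protects cells from apoptosis, was at 1.15 (0.23 to 2.16) from 45 and 13 UMIs. Degranulation and secretion genes had -0.06 over 6 genes, basophil markers 0.12 over 10 genes, other activating and inhibitory receptors 0.08 over 7 genes, and amine and proteoglycan stores -0.04 over 4 genes. Early progenitor genes had 0.01 over 5 genes. Type I interferon genes had 2 listed members, at 0.48 and 0.69.

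**Figure D5:**
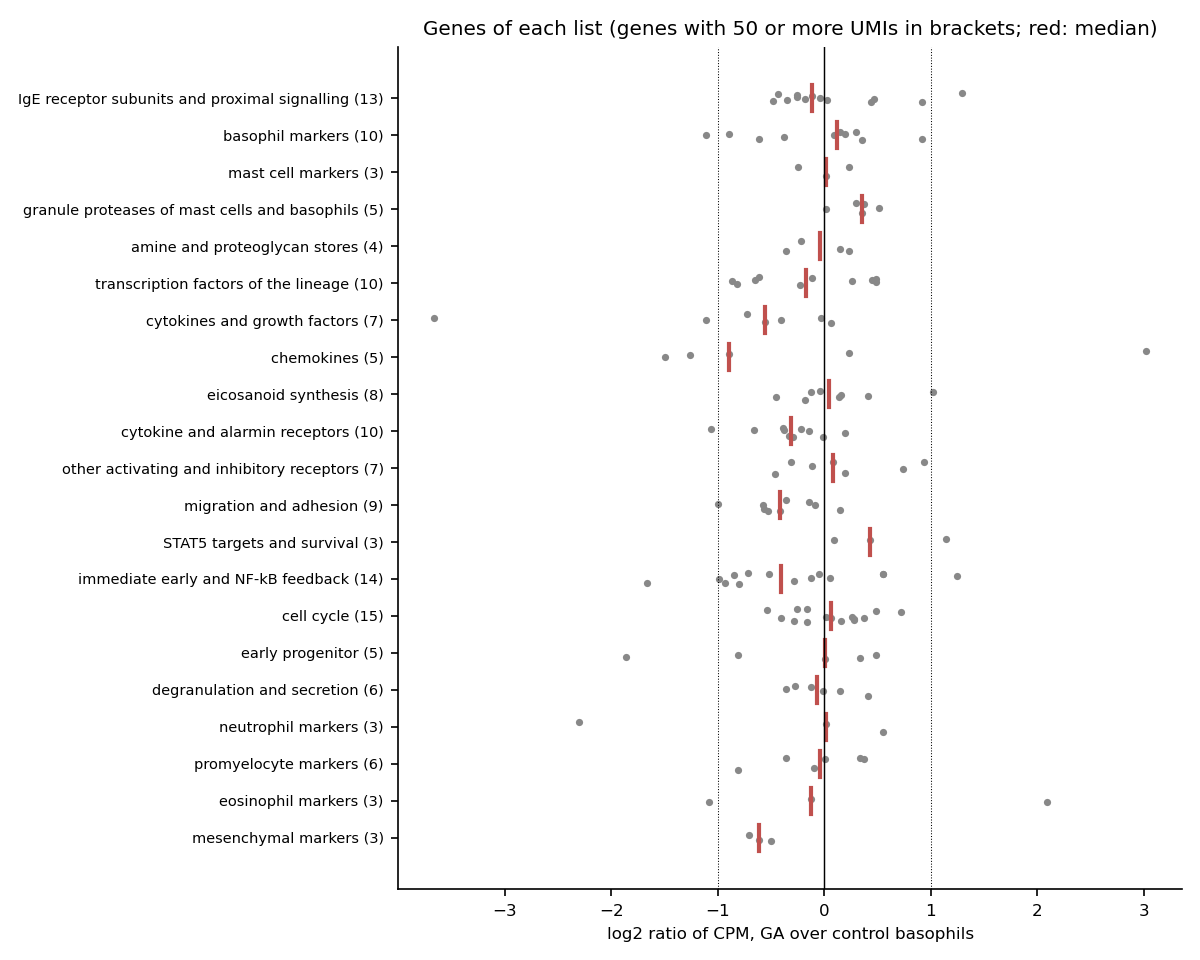
Log2 ratio of GA over control in basophils for each list with 3 or more genes of 50 UMIs, with 1 grey point per gene, a red bar at the median of the list, and dotted lines at 2-fold. The medians of chemokines (-0.89) and cytokines (-0.56) lie left of zero, and that of granule proteases (0.36) is the ratio of Mcpt8, a gene of the rule.

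Hspa1b, Hspa1a, Dnajb1 and Cd69 were among the 10 lowest ratios. The first of these were named for their ratios, since no list of heat shock genes was set. Hspa1b, an inducible heat shock protein, had 24.1 CPM in GA and 508 CPM in control (-4.40, -5.33 to -3.58), seen in 4 of 31 and 8 of 26 cells. Hspa1b had 13 UMIs in GA and 175 in control, and Hspa1a 11 and 125, so both passed the limit of 100 UMIs through control. The control basophils with more than 1 UMI of Hspa1b all held Mpo as well. Hspa1a had -4.15 (-5.19 to -3.26), with 61 of 125 control UMIs in 1 cell. That was the control cell of 40130 UMIs, whose other markers went against the name basophil, and it held 37 UMIs of Hspa1b. Since Hspa1a and Hspa1b are near copies of each other, their UMIs may be split between them. Dnajb1, a partner of these chaperones, had -1.56 (-2.20 to -0.95). Of 14 immediate early and NF-kB genes, 10 were lower in GA and 4 higher, with a median of -0.40, beside 44.7% lower over all genes, and the median turned to 0.03 with 10 UMIs of Mcpt8 asked for. Cd69, an activation marker, was the lowest of that list at -1.66 (-2.07 to -1.27), and Fos the highest at 1.24 (0.96 to 1.53), from 489 UMIs in GA and 132 in control. The bone was minced and digested with collagenase before capture, and the part of that step in these genes was not tested.

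The other extremes were of mixed kinds. Among those on the high side of GA were Epx, Dach1 (1.67), Peg10 (1.43), Aff1 (1.25), Arid1b (1.21), Wapl (1.11) and Sdf2l1 (1.09). Across the alternatives run, the lowest ratios were 0.54 for Dach1, 0.85 for Aff1, 0.43 for Arid1b, 0.93 for Wapl and 0.12 for Sdf2l1. These are not beyond 2-fold, whereas Peg10 kept at least 1.28. But Peg10 was seen in 6 GA and 2 control basophils only, with 45 of 135 GA UMIs and 19 of 32 control UMIs in 1 cell each. Of the Dach1 UMIs of GA, 74 of 134 were in 1 cell, and Epx rested on 106 of 107 UMIs in 1 cell. On the low side were Sox4 (-1.86, -2.34 to -1.40), Epc1 (-1.67), Skap1 (-1.57) and Dusp16 (-1.51). Ly6c2 and S100a8 had -2.54 and -2.30, but 87 of 89 and 300 of 322 control UMIs were in 1 cell, and without the richest cell of each library S100a8 stood at 1.21. For Epc1, 42 of 71 control UMIs were in 1 cell.

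Markers of most other cells summed to less than 500 CPM in the basophils, and those of neutrophils, eosinophils and promyelocytes to more. The 10 neutrophil markers summed to 738 CPM in GA and 1379 CPM in control, led by S100a9 and S100a8. In control 1 cell, of 40130 UMIs, held 300 UMIs of S100a8 and 65 of S100a9 among the 475 of the list. The higher sum of control rested on that cell. The 10 macrophage and monocyte markers summed to 152 and 444 CPM, the 8 dendritic cell markers to 26 and 110 CPM and the 8 mesenchymal markers to 308 and 473 CPM, led by Col1a1. Of the 153 macrophage and monocyte marker UMIs of control basophils, 87 were Ly6c2 in 1 cell. The 8 T and NK cell markers summed to 402 and 374 CPM, led by Nkg7, with 7 and 4 genes at 0. The B cell, erythroid, megakaryocyte and endothelial markers summed to 22.3, 48.2, 256 and 187 CPM in GA and to 46.4, 84.2, 305 and 192 CPM in control. The 8 eosinophil markers summed to 2328 and 4371 CPM, which was mostly Prg2. The 6 promyelocyte markers summed to 12439 and 12868 CPM, led by Srgn, which basophils express themselves. Without Srgn the other 5, Mpo, Elane, Prtn3, Ctsg and Ms4a3, summed to 9018 CPM in GA and 8486 CPM in control, and to 5126 and 4506 CPM without the basophil of most UMIs in each library, an alternative chosen after seeing the data. The part of these transcripts in the ratios of GA to control was not tested.

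Most of the Mcpt8 and Prss34 transcripts of the libraries lay in these cells, but not most transcripts of the protease list. The 72 cells held 95% of the Mcpt8 UMIs of all GA barcodes and 94.7% of those of control, and 98.7% of the Mcpt4 UMIs of control. For Prss34 the shares were 98.5% and 96.7%, and for Cpa3 78.6% and 95.7%. The 14 proteases of the list had 78571 UMIs in GA cells outside the class, led by Ctsg, against 23877 in GA basophils, and 20546 in control against 12262 in basophils and 7741 in mast cells. In cells rich in collagen transcripts, which should not make Mcpt8, 1.23% held a UMI in GA and 1.68% in control. Mcpt8 had 0.267 CPM over these cells in GA and 0.662 CPM in control, the background against which the Mcpt8 of single cells stands. Over all cells outside the class it had 2.52 and 1.14 CPM, which include the 6 GA and 2 control cells with 10 or more UMIs of Mcpt8 that the rule left out.

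Genes of signals from nerves were read in the class and outside it. Of 9 neurotrophin and neuropeptide genes, 1 reached 50 UMIs over the basophils: Ramp1, a subunit of the receptor for the sensory neuropeptide CGRP, had a ratio of 0.15, and the list summed to 223 CPM in GA and 215 CPM in control basophils, 356 CPM in mast cells, and 244 and 195 CPM in GA and control cells outside the class.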

How the data were processed

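Single cells of the calvarial defect were captured by 10x Genomics Chromium, as 1 library per condition. Per the file headers the authors made the matrices with Cell Ranger 7.0.1, on mm10 per the labels, and deposited counts, whole numbers of UMIs per gene and barcode with no normalization. The study's methods name another Cell Ranger release and removal of doublets with Scrublet, and whether that preceded deposit was not stated.

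Cells with 500 to 140000 UMIs, 200 to 9500 genes and up to 15% mitochondrial UMIs were kept, the limits of the study's methods. The cells and 30 gene lists were chosen with earlier results of these data known. Counts were summed per class and divided by the class total (CPM). Shares have exact Clopper-Pearson intervals, ratios of CPM exact conditional binomial intervals and ratios of shares log-normal intervals, each at 95%. Genes of 50 UMIs or more over both groups were listed. A group at 0 was set to a floor of 3 UMIs over the group. Neither free RNA nor doublets were removed, and Scrublet scores (highest 0.8% per 1000 barcodes) were an alternative. Named were the genes of the lists and, from 100 UMIs, the 10 highest and lowest ratios of GA over control and the 15 of mast cells over basophils (1 gene of the former is not reported here), while the genes of the Mcpt8 division and other single cells were chosen after their values were seen. Correlations over cells are Spearman's, with no p. Gene positions are those of GENCODE on GRCm38. Python 3.11.15 was used with NumPy 2.4.6, SciPy 1.17.1, pandas 2.3.3, scanpy 1.11.5 and matplotlib 3.10.9, and the calculations were tested on simulated data. No p-value was computed, since no condition had a second library.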

Additional observations from a re-analysis of the deposited data

Results flagged for a closer look

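A GA cell outside the rule carried mast cell proteases, and was counted as a mast cell only with a threshold of 1 UMI of Ms4a2. It held 53 UMIs of Mcpt4, Cma1 and Tpsb2 together (Cma1 31, Tpsb2 22, Mcpt4 0), 14 of Kit, 37 of Hdc, 14 of Gata2, 3 of Fcer1a and 1 of Ms4a2 among 7190 UMIs. The GA barcodes held 0 UMIs of Mrgprb1, which all 8 control mast cells carried.

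A GA barcode outside the quality limits met the transcript rule, with 35 UMIs of Ms4a2 and 26 of Cpa3. It had 9523 genes, just past the limit of 9500, and 117235 UMIs. Mcpt8 had 2 UMIs in it, Mpo 109, Cd34 17, Gata2 14 and Mki67 21, and Col1a1 1244. No control barcode outside the limits met the rule.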

How the results depend on the processing

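The GA over control ratios of shares stayed within their main intervals under every alternative run, at 0.828 to 1.06 for basophils and mast cells together and 0.966 to 1.41 for basophils. The shares themselves fell outside theirs when cells were thinned to 2000 UMIs before the rule, to 0.148% in GA and 0.178% in control. Mast cell intervals overlapped under 3 of 11 alternatives: 1 or 4 UMIs of Ms4a2, and that thinning. The ratio of 1.41 came from asking for 10 UMIs of Mcpt8, which left 30 GA and 19 control basophils. The difference in mast cell share, GA minus control, was -0.0989 percentage points and moved to -0.0255 when cells were thinned to 2000 UMIs before the rule, which left 2 control mast cells and 0 in GA. Genes beyond 2-fold between GA and control were 3.53% of those listed, 6.95% with cells weighted equally and 1.77% among genes with 200 UMIs or more. More were higher than lower (61 and 40), but 4 and 7 among genes with 200 UMIs or more and 5 and 6 after thinning to 2000 UMIs. Of the 20 genes chosen by their ratio, 14 to 20 stayed beyond 2-fold in the same direction. Of these, 3 changed sign: Epx had 0 UMIs in GA without the highest Scrublet scores, with a bound of -2.95 at the floor, Ly6c2 at 2.03 and S100a8 at 1.49 without the cell of most UMIs, and S100a8 at 1.21 without the cell richest in it (Ly6c2 again 2.03), the last an alternative chosen after seeing the data. Of 21 list medians, 7 of 8 kept their sign after thinning to 2000 UMIs and 11 of 13 among genes with 200 UMIs or more, the others having under 3 genes. Over all alternatives 13 of 21 medians changed sign at least once. Those of chemokines (-1.21 to -0.32), cytokines (-0.61 to -0.15) and migration genes (-0.46 to -0.22) did not. Il4 ranged from -1.48 to -0.98, Ccl4 from -1.43 to -0.44, Tnf from -4.36 to -2.58 and Hspa1b from -5.34 to -2.93. The cause of each change was not tested. No paired analysis was possible because each condition had 1 library. Depth limits the genes read: at 50 UMIs, 2864 of 32245 gene symbols were listed for basophils.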
